A study of Mus musculus with 2 samples.

Results

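Fibroblast growth factor (FGF) signalling genes were described in DNase-seq maps of mouse frontal cortex: the protein-coding genes named Fgf plus a number, the receptors Fgfr1 to Fgfr4, the Sprouty genes Spry1 to Spry4 and the Spred genes Spred1 to Spred3. They were picked by symbol from the GENCODE vM21 annotation of the mm10 assembly, and the set was chosen with earlier results of these data known. The rule found 33 genes. Spry3 lies on the unplaced scaffold GL456233.1, on which no list holds an interval, so 32 genes were assessed out of 21938 protein-coding gene models on the listed chromosomes: 18 secreted ligands, 4 intracellular FGFs, 4 receptors, 3 Sprouty and 3 Spred genes. In DNase-seq, nuclei are cut with DNase I and the cut sites are sequenced, so that open chromatin shows as a dense cluster of cuts, called a peak. The study holds 1 group, frontal cortex tissue of male B6CASTF1/J mice, the first generation of a cross between the C57BL/6J and CAST strains, at 10 days of age, with 2 biological replicates and no treatment or second condition. A note on both samples reads 3 males without saying if tissue was pooled, and both carry the same donor entry, so the spread between the libraries may be technical.

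FGF ligands bind receptor tyrosine kinases together with heparan sulfate or, for the endocrine ligands, with Klotho proteins. The receptors signal through adaptors to RAS and the MAP kinases, and the cascade switches on its own inhibitors, among them the Sprouty and Spred proteins. In the developing forebrain the pathway is known for patterning the cortex, for the growth of progenitors and for the making of glia, while the intracellular FGFs are not secreted and bind voltage-gated sodium channels.

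The main peak list held 39608 peaks in replicate 1 and 45915 in replicate 2, and by the steps of the deposited densities replicate 2 was sequenced 1.64 times as deeply. Each peak is described below by its density, the authors' read-depth normalised count of cuts, and by the percentile of that density within its own list, where 100 is the strongest. The tissue label was set against marker genes. A promoter peak in both libraries was found at 8 of 8 pan-neuronal and 5 of 5 forebrain regulator genes, and at 0 of 7 hindbrain and spinal, 0 of 5 myelinating oligodendrocyte and 0 of 4 erythroid genes. Among other cell types, it was found at 3 of 6 excitatory neuron, 2 of 8 interneuron, 3 of 7 astrocyte, 3 of 5 oligodendrocyte precursor, 1 of 6 microglia, 1 of 5 endothelial, 2 of 6 mural and fibroblast and 1 of 5 choroid plexus and ependyma genes. The last was Foxj1, a gene of ciliated cells, while the choroid plexus genes Ttr, Kcnj13, Folr1 and Clic6 had no peak. In bulk tissue, a site open in few cells and a site weakly open in many cells cannot be told apart.

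All 6 assessed Sprouty and Spred genes and all 4 intracellular FGF genes had an open promoter in both libraries, as against 3 of the 18 secreted ligands and 1 of the 4 receptors. A promoter peak is a peak that reaches within 1 kb of an annotated transcription start of the gene. A gene with one in each library is called open here. In all, 14 of 32 genes were open, against 55.1% of all protein-coding genes. A promoter peak in 1 library only was found at 5 of 32, against 4.49% of all genes, and no peak at all in the gene body and 10 kb upstream at 9 of 32, against 30.2%. These counts are descriptions of the libraries and carry no test.

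**Figure D1:**
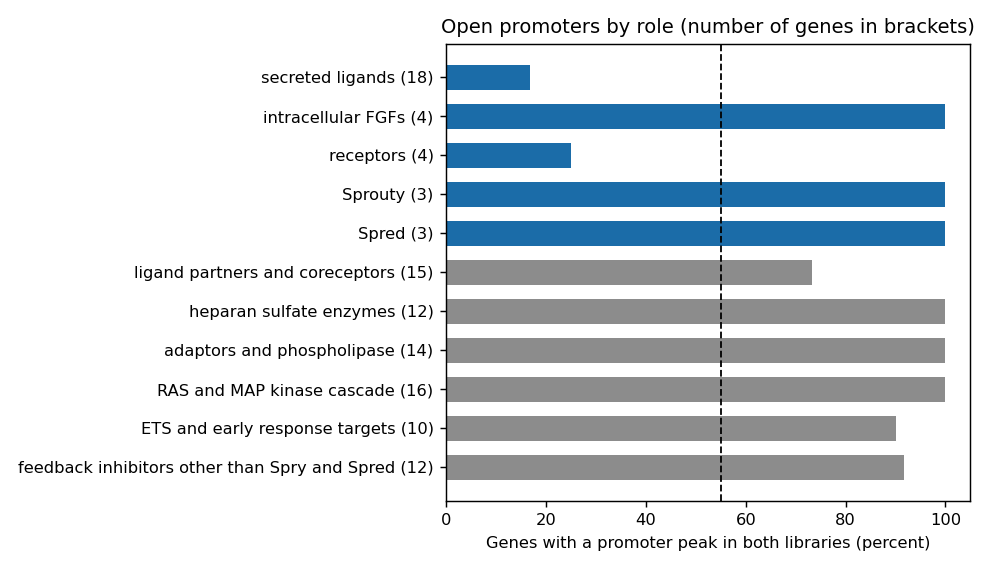
Percent of open genes (horizontal axis) by role (vertical axis, number of genes in brackets): FGF, receptor, Sprouty and Spred genes in blue, other genes of the pathway in grey, and a dashed line at the 55.1% of all protein-coding genes. Secreted ligands (16.7%) and receptors (25.0%) lie below the line and the other groups above it.

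Within the family, the 6 assessed Sprouty and Spred genes had the strongest promoter peaks, that of Spred3 lying beside the start of Ggn. The strongest promoter peaks of the 6 Sprouty and Spred genes had a median percentile of 86.4 in replicate 1 and 88.1 in replicate 2, next to 84.3 and 85.8 over all open protein-coding genes. For the 14 open genes of the family together the medians were 78.3 and 80.3 (79.3 ± 1.40, SD, n = 2 libraries). The 4 intracellular FGFs had 74.1 and 72.8, and the 3 open secreted ligands 63.2 and 73.4.

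**Figure D2:**
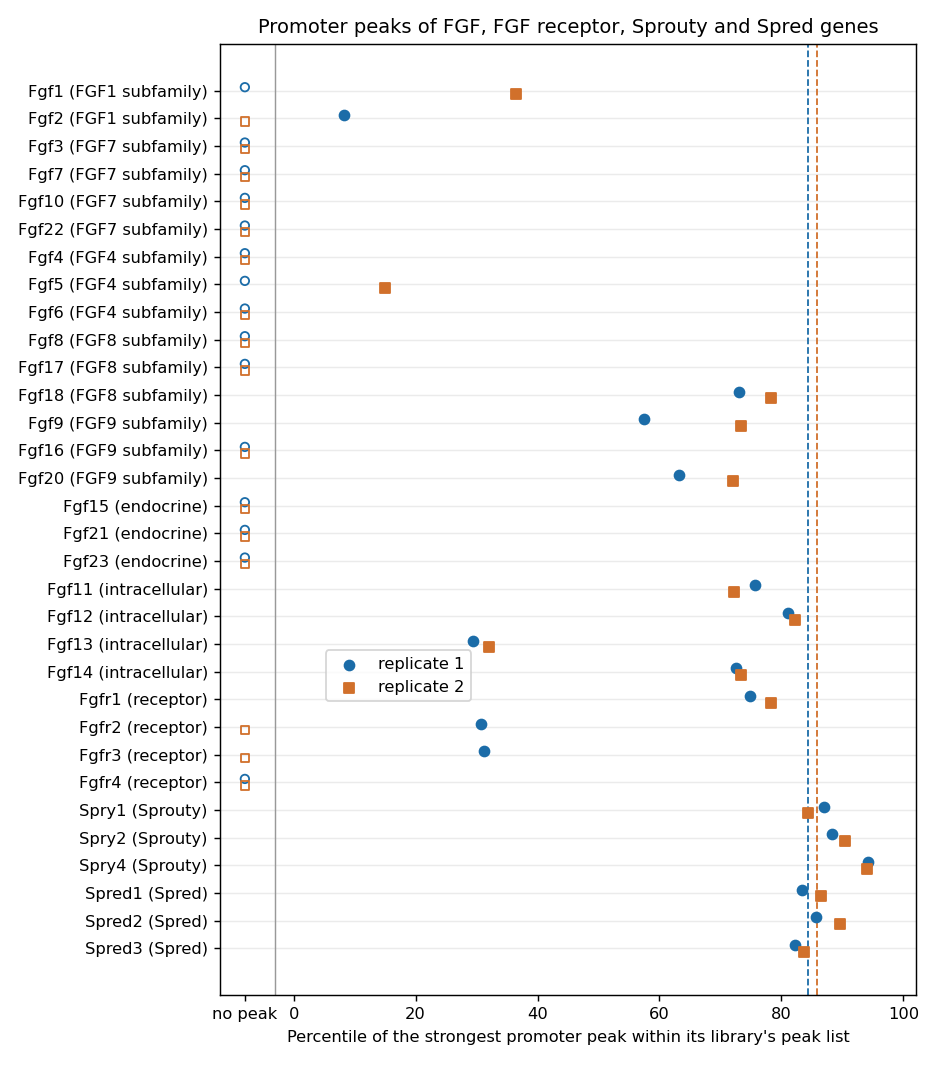
Percentile of the strongest promoter peak within its library's list (horizontal axis) for each of the 32 genes (vertical axis, role in brackets), with circles for replicate 1, squares for replicate 2, open symbols where there was no promoter peak, and dashed lines at the medians of all protein-coding genes open in both libraries (84.3 and 85.8). The Sprouty and Spred genes lie between 82.3 and 94.2, and in each library all of them lie above the open FGF genes and Fgfr1.

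Among the secreted ligands, the open promoters were those of Fgf18, Fgf9 and Fgf20. Fgf18, a ligand of the FGF8 subfamily known from bone and cortex, had its strongest promoter peak 454 bp downstream of a start on chromosome 11. Its density was 2.61 in replicate 1 and 1.98 in replicate 2, at percentiles 73.1 and 78.3, and the peak ran over the same 200 bp in both. Fgf9, a ligand that neurons make, had a peak 248 bp upstream of a start in replicate 1 (density 1.71, percentile 57.5) and 196 bp upstream in replicate 2 (1.68, 73.4). Both libraries thus showed the same Fgf9 site, at ranks further apart than those of Fgf18. Fgf20, of the same subfamily as Fgf9, had 2 promoter peaks in each library, the stronger at density 1.95 and percentile 63.2 in replicate 1 and 1.61 and 72.1 in replicate 2. The stronger lies 292 bp (replicate 1) and 352 bp (replicate 2) from the start of the microRNA gene Mir7666. From that of Micu3, a mitochondrial calcium gene, it lies 763 and 823 bp. The weaker (percentiles 55.9 and 53.0) lies 9 bp from the Mir7666 start in replicate 1 and covers it in replicate 2. It lies 183 bp from the Micu3 start in both. Peaks of these neighbours thus cannot be told apart from those of Fgf20. With peaks within 1 kb of another protein-coding gene's start left out, Fgf20 dropped from the count and 13 open genes remained.

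The Fgf9 and Fgf18 windows are printed here, as the only secreted ligands with an open promoter and no start of another gene within 1 kb. Both windows lie in an intron, near an annotated start inside the gene, and not at the promoters that RefSeq gives. Those are at chr14:58072436-58072735 for Fgf9 and chr11:33147351-33147650 for Fgf18. Each window is at most 200 bases of the stretch that both libraries' peaks cover, read in the gene's direction from the mm10 genome of RefSeq, and capitals mark bases inside a footprint in both libraries. A footprint is a short stretch within open chromatin that is spared from cutting, as bound proteins are known to leave.
Fgf9 promoter (chr14:58076171-58076370, plus strand): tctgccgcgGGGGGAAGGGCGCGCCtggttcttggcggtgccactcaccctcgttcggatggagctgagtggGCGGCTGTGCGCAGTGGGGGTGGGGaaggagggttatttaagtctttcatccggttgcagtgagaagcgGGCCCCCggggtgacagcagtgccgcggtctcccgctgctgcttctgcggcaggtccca
Fgf18 promoter (chr11:33146241-33146440, minus strand): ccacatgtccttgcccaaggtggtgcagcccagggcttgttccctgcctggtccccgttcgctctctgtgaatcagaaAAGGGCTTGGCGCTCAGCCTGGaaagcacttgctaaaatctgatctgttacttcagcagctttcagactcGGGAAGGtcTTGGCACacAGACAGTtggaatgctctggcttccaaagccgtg
In the Fgf9 window 48 bases lay in footprints of both libraries, and in the Fgf18 window 43. The Fgf9 window holds 1 match to the SP/KLF letters GGGCGG, which touches the capitals. The Fgf18 window holds 1 match to the E-box letters CAGNTG, which does so too, and 1 to the AP-1 letters TGANTCA, outside capitals.

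Fgf1, Fgf2 and Fgf5 had a promoter peak in 1 library only, each in the lower part of its list. Fgf1, the acidic FGF, had a peak of 66 bp in replicate 2 (density 0.817, percentile 36.4), 27 bp from a start. In replicate 1 the lowest false discovery rate (FDR) of any base in its promoter windows was 0.0194, above the 0.001 of the main list. A stronger Fgf1 peak found in both libraries lay just outside the window and was counted as distal. It was centred 1129 bp upstream in replicate 1 (percentile 70.4) and 1123 bp in replicate 2 (60.1). With a window of 2500 bp Fgf1 had promoter peaks in both libraries. Fgf2, the basic FGF and a mitogen of neural progenitors, had a peak of 106 bp at its start in replicate 1 (density 0.661, percentile 8.26), where replicate 2 reached an FDR of 0.0141. Fgf5, known as a regulator of hair growth, had 2 peaks in replicate 2, at percentiles 15.0 and 8.99. Its densities there were 0.553 and 0.461, and replicate 1 reached an FDR of 0.00190. In the looser deposited list, at an FDR of 0.05, Fgf1, Fgf2 and Fgf5 each had promoter peaks in both libraries, and Fgf1 and Fgf5 also did in both read-derived lists, which the authors made in another run from the reads.

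Fgf8, Fgf10, Fgf22 and Fgf23 had no promoter peak but carried peaks elsewhere in their spans. Fgf8, a morphogen of the anterior forebrain and the midbrain-hindbrain border, had 3 upstream peaks in replicate 1 and 4 in replicate 2. The strongest was centred 4736 bp upstream of the start in replicate 1 (density 2.63, percentile 73.3) and 4746 bp upstream in replicate 2 (1.50, 69.4). Another, at percentiles 56.2 and 62.3, covers the start of Npm3, a nucleoplasmin gene, and so is not Fgf8's alone. No base within 1 kb of an Fgf8 start had an FDR under 0.05 in either library. The open chromatin around Fgf8 therefore lay upstream of the gene and not at its starts.

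For Fgf22, a ligand that organises excitatory synapses, the single peak of each library (densities 8.97 and 5.77, percentiles 95.2 and 95.4) covers the start of Polrmt, the mitochondrial RNA polymerase gene, 8465 bp upstream of Fgf22 in replicate 1. It was the strongest distal peak among the 32 genes, and it lies at a neighbour's promoter. Fgf10, a ligand of lung and limb budding, had 1 peak found in both libraries, in its UTR, at percentiles 4.88 and 8.99. Fgf23, a bone hormone of phosphate balance, had 1 peak in both, centred 7139 bp downstream of its start in replicate 1 (density 1.60, percentile 54.4) and 7070 bp in replicate 2 (1.13, 56.2).

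No peak of the main list was found in the span of Fgf3, Fgf4, Fgf6, Fgf7, Fgf15, Fgf16, Fgf17, Fgf21 or Fgfr4 in either library. Fgf3, Fgf4 and Fgf15 stand next to each other on chromosome 7, and the 62.9 kb from the start of Fgf3 to the end of Fgf15 held 0 peaks in both libraries. These genes act in the inner ear, the early embryo and, for Fgf15, as a gut hormone of bile acid synthesis. Fgf15 came closest to the main list, with a lowest FDR of 0.00118 in replicate 1 and 0.00610 in replicate 2, and had a promoter peak in both libraries in the looser and both read-derived lists. For Fgf16, which is X-linked, the values were 0.00249 and 0.0389, and both read-derived lists held a promoter peak in both libraries. Fgf7, a keratinocyte growth factor also known from inhibitory synapses, reached 0.00231 and 0.0185.

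The other 6 spans were further from the threshold. Fgf3 and Fgf4, whose spans overlap, shared a lowest FDR of 0.00971 in replicate 1 and had no base under 0.05 in replicate 2. Fgf17, a forebrain patterning ligand related to Fgf8, reached 0.0205 in replicate 1 only, but its span held 3 distal peaks in each library in the smaller read-derived list and 3 and 6 in the larger one. In Fgf6, a muscle ligand, Fgf21, a liver hormone, and the receptor gene Fgfr4, no base had an FDR under 0.05 in either library. These 3 genes had no promoter peak in any of the 4 deposited lists of either library.

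The intracellular FGFs, also called FGF homologous factors, were open at all 4 genes. Fgf12 had the strongest promoter, 343 bp upstream of a start in replicate 1 (density 3.66, percentile 81.1) and 313 bp upstream in replicate 2 (2.36, 82.3). Its lowest FDR was 2.26e-35 in replicate 1 and 5.77e-39 in replicate 2. The window printed here was chosen because it is the strongest site of the group.
Fgf12 promoter (chr16:28753261-28753460, minus strand): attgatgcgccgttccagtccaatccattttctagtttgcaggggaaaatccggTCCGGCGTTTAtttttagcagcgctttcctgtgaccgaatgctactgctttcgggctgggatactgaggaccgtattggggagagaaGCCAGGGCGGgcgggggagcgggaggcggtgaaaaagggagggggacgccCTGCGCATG
The 2 matches to NRF1 letters (TGCGCANG) and the 2 to GGGCGG in this window all touch capitals. The matches of each pair overlap each other, those to the NRF1 letters on opposite strands, so they are not separate sites. Fgf12 has 6 annotated starts and a further promoter peak, 534 bp upstream of another start in replicate 1 (percentile 54.9) and 599 bp in replicate 2 (percentile 34.4).

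Fgf14, whose mutation is known to cause ataxia, was open 444 bp upstream of a start in replicate 1 (density 2.56, percentile 72.5) and 454 bp upstream in replicate 2 (1.68, 73.4). The 2 libraries thus placed Fgf14 at nearly the same rank. Fgf11, the least studied of the 4, had its strongest promoter peak at percentile 75.6 in replicate 1 (density 2.87, centred 1084 bp upstream) and 72.3 in replicate 2 (1.63, centred 916 bp downstream). These are different sites, but each was found in both libraries. The upstream site ranked at 67.9 in replicate 2, where it was centred 1127 bp upstream and counted as distal. The downstream site was covered by 2 promoter peaks in replicate 1, at percentiles 64.3 and 63.6. No Fgf11 peak lay within 500 bp of a start, so with a window of 500 bp Fgf11 dropped out of the open genes.

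Fgf13, which also binds microtubules, was the weakest open promoter of the 14. Its strongest promoter peak was 765 bp upstream of a start in replicate 1 (density 1.04, percentile 29.4) and 745 bp upstream in replicate 2 (0.764, 32.1). The gene is X-linked and the animals were male, with 1 X chromosome. Over the 391 open X-linked genes the median percentile of the strongest one was 70.4 and 73.0, against 84.7 and 86.2 over 11692 autosomal genes. The part of X linkage in the Fgf13 value was not tested.

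Of the receptor tyrosine kinases, Fgfr1 was open in both libraries, Fgfr2 and Fgfr3 in replicate 1 only, and Fgfr4 in neither. Fgfr1, the receptor best known from neurons and cortical progenitors, had a promoter peak centred 28 bp upstream of a start in replicate 1 (density 2.77, percentile 74.8) and 8 bp upstream in replicate 2 (1.98, 78.3). An intronic Fgfr1 peak 5098 bp downstream of a start in replicate 1 had density 2.10 (percentile 66.1), and in replicate 2, 5090 bp downstream, 2.15 (percentile 80.3). The Fgfr1 intron thus held a site that ranked below the promoter in replicate 1 and above it in replicate 2.

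Fgfr2 and Fgfr3 are the receptors known from glia. Fgfr2 was measured on its transcripts of typical length, those spanning at most 3 times the median, because 1 annotated transcript runs far beyond the others. It had 3 promoter peaks in replicate 1 at percentiles 30.7, 23.1 and 20.5, with densities of 1.06, 0.931 and 0.888. In replicate 2 the lowest FDR in the same windows was 0.00345, and the looser and both read-derived lists held a promoter peak in both libraries. Its 1 shared distal peak, in an intron, ranked at 10.8 and 31.5. Fgfr3 had a promoter peak of 65 bp in replicate 1 (density 1.07, percentile 31.3), and replicate 2 had no base under an FDR of 0.05 there.

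The Fgfr3 site with the lowest FDR was intronic. It was centred 2553 bp downstream of a start in replicate 1 (density 1.59, percentile 54.1) and 2599 bp in replicate 2 (1.36, 65.2), with a lowest FDR of 4.79e-07 and 7.02e-13. It is printed as the stronger of the shared intronic sites of Fgfr2 and Fgfr3, whose promoters had a peak in 1 library only.
Fgfr3 intron (chr5:33726241-33726430, plus strand): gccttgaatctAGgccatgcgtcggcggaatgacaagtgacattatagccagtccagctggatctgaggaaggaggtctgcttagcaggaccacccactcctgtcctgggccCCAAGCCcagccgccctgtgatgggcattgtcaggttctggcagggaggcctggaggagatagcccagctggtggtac
In this window 9 bases lay in footprints of both libraries. It holds 1 match to GGGCGG and 2 to CAGNTG, all outside capitals.

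Sprouty genes encode inhibitors that act between the receptor and the MAP kinases and are themselves switched on by the signal. Spry4 had the strongest promoter of all 32 genes, at density 8.25 and percentile 94.2 in replicate 1 and 5.03 and 94.1 in replicate 2. The Spry4 peak sits on the start, centred 6 bp upstream in replicate 1 and 4 bp downstream in replicate 2, with a lowest FDR of 1.05e-54 and 1.63e-49. The start of a gene named AC133601.1 lies inside the peak in replicate 1 and 14 bp from it in replicate 2. Spry2 followed, with a peak centred 582 bp upstream in replicate 1 (density 5.44, percentile 88.3) and 592 bp upstream in replicate 2 (3.73, 90.4). Spry1 had its strongest peak 96 bp upstream in both libraries, over the same 260 bp, at density 5.04 and percentile 87.0 in replicate 1 and 2.59 and 84.4 in replicate 2. The start of a gene named Gm42922 lies 676 bp from it. The order of the 3 genes by rank was the same in both libraries.

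The Spry1 and Spry2 promoters are printed as strong sites of genes for which RefSeq gives a promoter. The Spry1 window lies inside that promoter. The Spry2 window lies upstream of the Spry2 one, which is at chr14:105896770-105897069, so their letters can differ.
Spry1 promoter (chr3:37639738-37639937, plus strand): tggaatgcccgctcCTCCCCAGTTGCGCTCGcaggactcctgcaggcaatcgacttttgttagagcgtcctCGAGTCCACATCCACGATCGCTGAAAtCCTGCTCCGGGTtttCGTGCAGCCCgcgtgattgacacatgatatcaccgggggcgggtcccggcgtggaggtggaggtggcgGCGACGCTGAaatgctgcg
Spry2 promoter (chr14:105897303-105897502, minus strand): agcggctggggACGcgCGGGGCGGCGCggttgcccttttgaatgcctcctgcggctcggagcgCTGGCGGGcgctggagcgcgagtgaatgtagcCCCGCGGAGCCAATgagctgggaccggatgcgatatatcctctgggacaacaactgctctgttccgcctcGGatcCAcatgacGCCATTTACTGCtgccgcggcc
Spry2 upstream site (chr14:105898961-105899140, minus strand): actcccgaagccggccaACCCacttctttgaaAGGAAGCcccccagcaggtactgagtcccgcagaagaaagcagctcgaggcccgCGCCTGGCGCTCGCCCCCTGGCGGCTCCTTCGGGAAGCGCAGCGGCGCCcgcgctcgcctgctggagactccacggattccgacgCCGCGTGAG
Footprints of both libraries covered 75 bases of the Spry1 window, 52 of the Spry2 promoter window and 69 of the Spry2 upstream window. The Spry1 and Spry2 promoter windows hold 1 match each to GGGCGG, touching capitals in Spry2, and 1 each to CAGNTG, touching capitals in Spry1. None of the 9 motifs searched was found in the Spry2 upstream window.

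Spry2 was the most densely surrounded by open sites, with 4 distal peaks shared by both libraries in a span of 14.9 kb, or 2.69 per 10 kb. The upstream site printed above was the strongest shared distal peak of the Sprouty genes, at density 3.53 and percentile 80.3 in replicate 1, centred 2162 bp upstream, and 1.99 and 78.4 in replicate 2, centred 2232 bp upstream. A second lay 1152 bp upstream in replicate 1 (percentile 64.3) and 1162 bp in replicate 2 (percentile 70.6). The other 2 were intragenic, at percentiles 52.3 and 15.4 in replicate 1 and 37.9 and 15.5 in replicate 2. Spry4 had 1 shared distal peak, 9350 bp upstream in replicate 1 (percentile 43.5) and 9351 bp in replicate 2 (percentile 66.5). Spry1 had 1 in its coding exon, at percentiles 11.9 and 33.8.

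**Figure D3:**
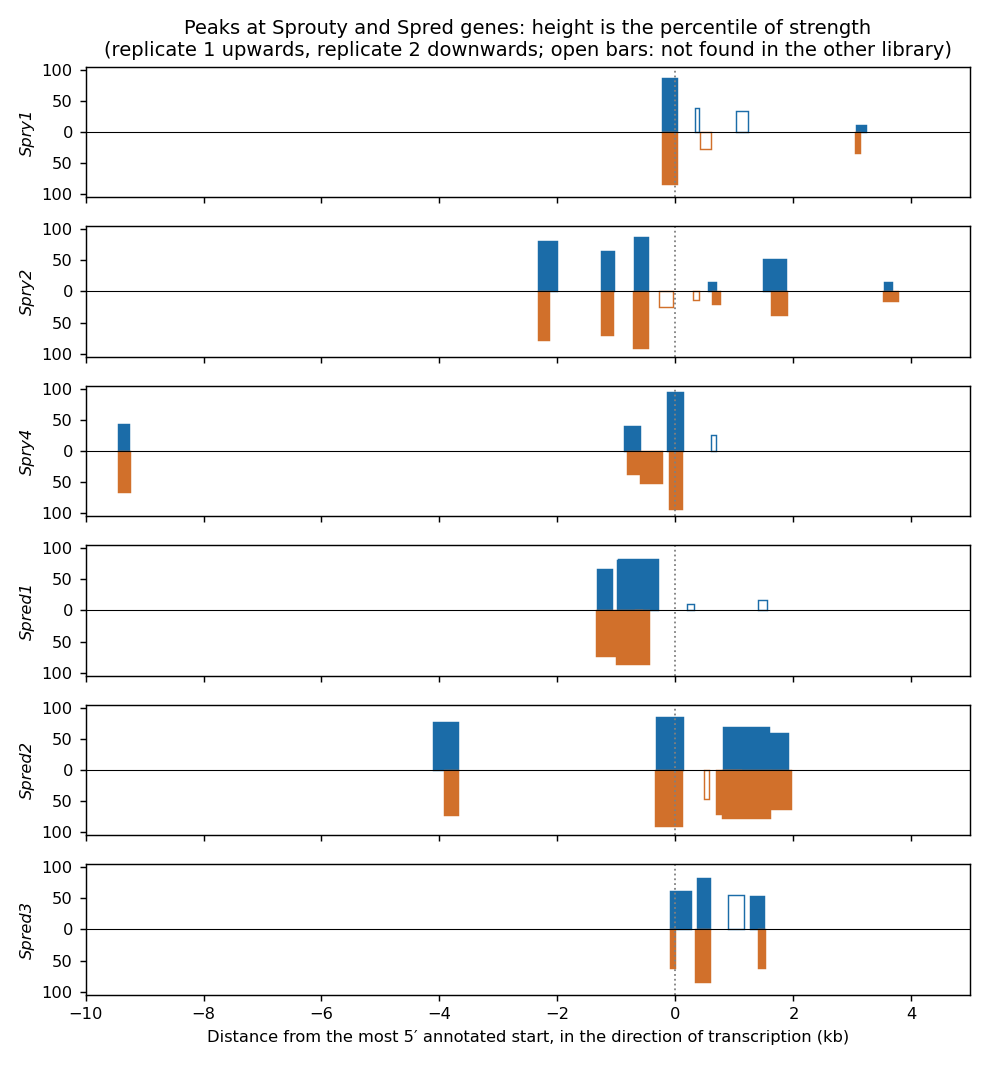
Peaks at the 6 assessed Sprouty and Spred genes by distance from the most 5′ annotated start in kb (horizontal axis, direction of transcription to the right); bar height is the percentile of strength (vertical axis), upwards for replicate 1 and downwards for replicate 2, and open bars were not found in the other library. The strongest bar of each gene is filled in both directions, and Spry2 shows 3 strong bars upstream of its start. Shared distal peaks that begin 59227 bp (Spred1) and 23302 bp (Spred2) downstream of that start in replicate 1 lie beyond the axis and are not drawn.

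Spred proteins block the activation of RAF and bring neurofibromin, the product of Nf1, to the membrane. Spred2 was open 104 bp upstream of a start in replicate 1 (density 4.65, percentile 85.7) and 124 bp upstream in replicate 2 (3.53, 89.6). Spred1, whose human counterpart is mutated in Legius syndrome, had its strongest peak 633 bp upstream in replicate 1 (density 4.09, percentile 83.3) and 733 bp upstream in replicate 2 (2.91, 86.5). Spred3 had it 90 bp upstream of a start in replicate 1 (density 3.90, percentile 82.3) and 110 bp upstream in replicate 2 (2.51, 83.7). Spred2, Spred1 and Spred3 thus came in the same order in both libraries, below Spry4 in each. The Spred3 peak lies 170 bp from the start of Ggn, a gametogenesis gene, in replicate 1 and 130 bp in replicate 2, so a peak of Ggn cannot be told apart from one of Spred3. The strongest Spred3 promoter peak with no other start within 1 kb ranked at 54.6 in replicate 1 and 62.1 in replicate 2, below several open FGF genes.

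The Spred1 and Spred2 windows are printed for comparison with those of the Sprouty genes. Both promoter windows overlap only in part the promoters that RefSeq gives, at chr2:117120821-117121120 for Spred1 and chr11:19924192-19924491 for Spred2.
Spred1 promoter (chr2:117120710-117120909, plus strand): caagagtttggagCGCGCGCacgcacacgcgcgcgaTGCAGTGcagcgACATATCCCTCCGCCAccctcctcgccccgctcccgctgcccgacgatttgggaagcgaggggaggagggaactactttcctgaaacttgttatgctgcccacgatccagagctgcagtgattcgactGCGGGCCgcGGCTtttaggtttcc
Spred2 promoter (chr11:19924041-19924240, plus strand): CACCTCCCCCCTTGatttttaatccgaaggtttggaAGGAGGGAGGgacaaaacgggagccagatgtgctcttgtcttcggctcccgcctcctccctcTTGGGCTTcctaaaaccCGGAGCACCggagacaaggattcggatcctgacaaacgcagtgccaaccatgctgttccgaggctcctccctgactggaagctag
Spred2 upstream site (chr11:19920468-19920667, plus strand): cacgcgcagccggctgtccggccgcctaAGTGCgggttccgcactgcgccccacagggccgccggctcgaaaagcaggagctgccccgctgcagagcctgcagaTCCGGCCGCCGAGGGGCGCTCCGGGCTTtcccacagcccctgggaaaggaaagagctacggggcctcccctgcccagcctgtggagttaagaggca
Shared footprints covered 41 bases of the Spred1 and 41 of the Spred2 promoter window, and 33 of the Spred2 upstream window. The Spred2 promoter window holds 1 E-box match, outside capitals. None of the 9 motifs was found in the Spred1 promoter window or the Spred2 upstream window.

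Spred2 had 3 shared distal peaks and Spred1 had 2, while Spred3 had none. The strongest of Spred2 was the upstream site, at density 3.05 and percentile 77.1 in replicate 1, centred 3904 bp upstream, and 1.65 and 72.7 in replicate 2, centred 3800 bp upstream. Those of Spred1 lay 1203 bp upstream (percentile 66.6 in replicate 1, 73.3 in replicate 2) and in a UTR at the far end of the gene (percentiles 65.5 and 53.4). Of the 11 shared distal peaks of the Sprouty and Spred genes, 8 were centred within 4 kb of a start of their own gene, and 0 were among the strongest 10% of both lists.

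Most distal peaks were found in both libraries. The spans, gene body plus 10 kb upstream, held 41 distal peaks in replicate 1, of which 35 (85.4%) overlapped a peak of replicate 2 by at least 1 bp, and 45 in replicate 2, of which 37 (82.2%) overlapped one of replicate 1. Over all protein-coding spans the shares were 74.7% and 56.6%. Of the promoter peaks of the family, 27 of 44 (61.4%) and 27 of 41 (65.9%) were found again, against 84.2% and 81.3% over all protein-coding genes. At least 1 shared distal peak was present at 18 of 32 genes, against 28.9% of all genes. Introns held 25 of the 41 and 28 of the 45 distal peaks.

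**Figure D4:**
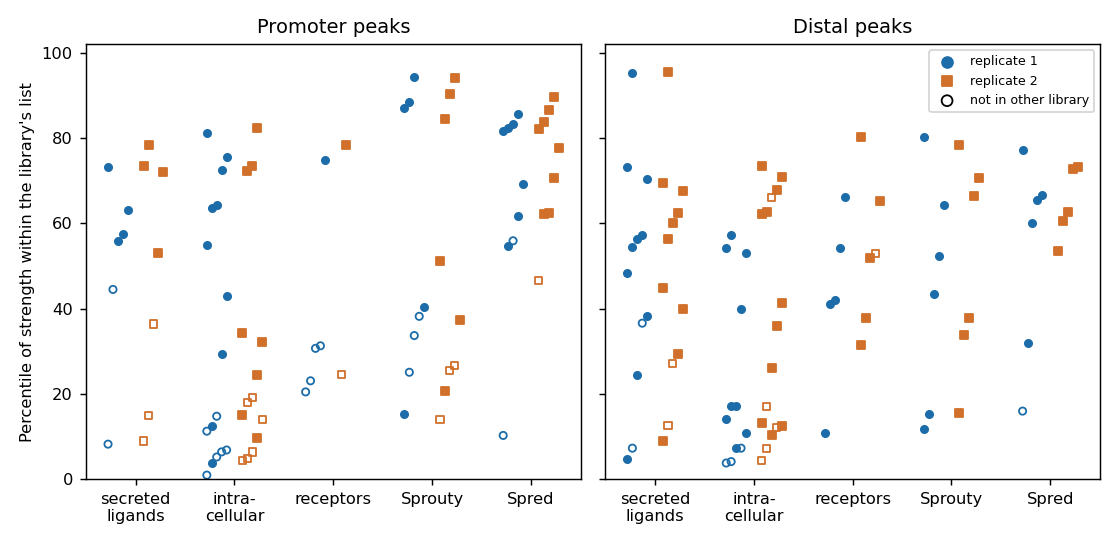
Percentile of strength within the library's list (vertical axis) of every promoter peak (left) and distal peak (right) of the 32 genes, by role (horizontal axis), with circles for replicate 1, squares for replicate 2 and open symbols for peaks not found in the other library. The distal point at 95.2 and 95.4 is the peak at the Polrmt start, counted for Fgf22.

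The long intracellular FGF genes held shared distal peaks of mixed strength. In replicate 1 those of Fgf12 ranked from 17.3 to 57.2 and those of Fgf13 and Fgf14 at 17.3 or lower. The median over distal peaks of all protein-coding spans was 41.0. Fgf12, Fgf13 and Fgf14 span 603, 516 and 709 kb, and had 5, 1 and 3 distal peaks shared by both libraries, or 0.0829, 0.0194 and 0.0423 per 10 kb. The strongest shared one was in an Fgf12 intron 31420 bp upstream of the nearest start, at density 1.70 and percentile 57.2 in replicate 1 and 1.68 and 73.4 in replicate 2. For the FGF1 subfamily the strongest was 1129 bp upstream of Fgf1 in replicate 1 (density 2.38, percentile 70.4) and 1123 bp in replicate 2 (1.22, 60.1). For the FGF9 subfamily it was in an intron, 9698 bp upstream of an Fgf20 start in replicate 1, at percentiles 48.4 and 44.9. Fgf18 also had a shared peak 1132 bp upstream in replicate 1 (percentile 57.2) and 1111 bp in replicate 2 (percentile 67.6).

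Fgf12, Spred2 and Spry2 carried the most footprints. The spans and promoter windows of the 32 genes held 349 footprints in replicate 1 and 444 in replicate 2, of which 54.7% and 40.5% overlapped a footprint of the other library, next to 55.6% and 40.7% of the whole lists. Fgf12 had the most, 53 and 57, with 26 and 25 found again. Spred2 had 32 and 40, with 21 and 20 found again, and Spry2 26 and 35, with 18 and 19. Spred2 and Spry2 thus had a larger share found again than Fgf12, in spans of 110 and 14.9 kb against 603 kb. Of all listed footprints inside a peak, 64.9% in replicate 1 and 52.9% in replicate 2 were found again. In replicate 1, 31 of 32 at Spred2, 17 of 26 at Spry2 and 37 of 53 at Fgf12 lay inside a peak. In replicate 2 these were 27 of 40, 23 of 35 and 33 of 57. The part of peaks in the difference was not tested. Spry4 had 12 and 16, with 10 found again in each. At Fgf13, 18 and 30 footprints were listed and 5 found again in each. Fgf5 had 13 footprints in replicate 2 and 0 in replicate 1. Fgf3, Fgf4, Fgf6, Fgf16, Fgf21 and Fgfr4 had 0 in both.

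**Figure D5:**
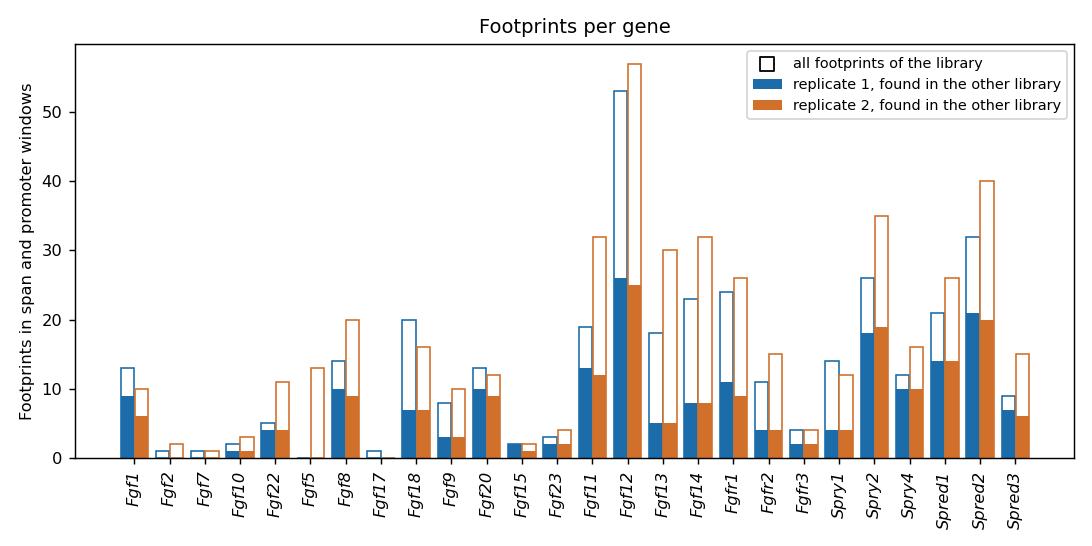
Number of footprints in the span and promoter windows (vertical axis) of each gene with at least 1 footprint (horizontal axis), for replicate 1 (blue) and replicate 2 (orange), with the filled part of each bar found in the other library. Fgf12 has the tallest bars (53 and 57). In replicate 1 Spred2, Spry2, Spred1 and Spry4 have mostly filled bars, and so do FGF genes such as Fgf20 (10 of 13) and Fgf8 (10 of 14). Spry1 has 4 of 14 filled there.

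Sequence letters at these promoters were compared with all promoters in the RefSeq promoter table (GRCm38.p6), which gives 250 bases before to 50 after a start. It held 31 promoters of 24 of the 33 genes. Fgf1, Fgf8, Fgf15, Fgf16, Fgf17, Fgf20, Fgfr1, Spry3 and Spry4 had no entry. The ratio of observed to expected CpG had a median of 0.848 over the 17 promoters of genes open in both libraries and 0.685 over the 14 promoters of the other members. Over all protein-coding genes in the table the medians were 0.762 for open and 0.225 for other genes. The 14 include promoters of Fgf2, Fgf5, Fgfr2 and Fgfr3, which had a promoter peak in 1 library. Among family genes with no promoter peak, Fgf4 had 0.774, Fgf3 0.748, Fgf7 0.720, Fgfr4 0.649 and Fgf22 0.627. The others in the table were lower, with Fgf6 at 0.441, Fgf10 at 0.394, Fgf21 at 0.361 and Fgf23 at 0.333.

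The 9 motifs were searched on either strand as fixed letters: CCGGAA for ETS factors, TGANTCA for AP-1, TGACGTCA for the cyclic AMP response element (CRE), GGGCGG for SP/KLF factors, CAGNTG for the E-box, TGCGCANG for NRF1, GCGTGGG for EGR factors, ACAATNG for SOX factors and CTTTGAT for TCF/LEF factors. A gene can have several promoters in the table, not all of them with a peak, so promoters are grouped by whether their gene was open. GGGCGG was in 64.7% of the promoters of open family genes and 71.4% of those of the others, against 63.2% for all open genes and 47.8% of all promoters. GCGTGGG was in 1 of 17 promoters of open and 5 of 14 of other family genes (Fgf2, Fgf6, Fgf22 and both of Fgfr3), against 6.65% of all promoters. CCGGAA, the core of sites for the ETS factors that act downstream of FGF receptors, was in 2 of the 17 promoters of open genes (Spry2 and 1 of Fgf12) and 2 of the 14 others (Fgf5 and Fgfr4), against 27.1% for all open genes and 19.2% of all promoters. Of the 5 Sprouty and Spred promoters in the table, 4 held GGGCGG and 1 held CCGGAA. These are the RefSeq promoters and not the windows printed above, which can hold other letters. A match describes letters and not binding.

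In footprints with 10 bp added on each side, CCGGAA was in 7 of 349 (2.01%) in replicate 1 and 11 of 444 (2.48%) in replicate 2, next to 2.32% and 1.97% of all footprints. GGGCGG was in 7.45% and 10.1%, next to 11.6% and 10.2%, and CAGNTG in 4.87% and 6.31%, next to 8.69% and 9.30%. The CRE letters were in 0 of 349 and 0 of 444, next to 0.434% and 0.370%. These shares are descriptions with no test.

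The rest of the pathway, taken from 6 lists of 79 genes, was mostly open, at 73 genes (92.4%) against 55.1% of all genes. All 14 adaptors, all 16 genes of the RAS and MAP kinase cascade and all 12 heparan sulfate enzymes were open. For the pathway lists, shared peaks per 10 kb count promoter and distal peaks together. They are not comparable with the values given above for the family, which count distal peaks only. They also depend on length, so that a short gene can rank high with few peaks. Among ligand partners, Fgfbp3 had 2 shared peaks in 12.1 kb (1.65) and Ncam1 had 8 in 307 kb (0.261). The genes with the most shared peaks per 10 kb were Frs3 (1.58), Shc1 (1.39) and Crkl (0.441) among adaptors, Hras (1.34) and Map2k2 (0.787) in the cascade, and Hs6st1 (0.625), Sulf2 (0.540) and Ndst2 (0.481) among the enzymes. Frs3 encodes a docking protein of the FGF receptors.

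Of 15 ligand partners and coreceptors 11 were open. Fgfbp3 (1.65), Flrt3 (0.980) and Sdc3 (0.913) had the most shared peaks per 10 kb, and Kl, Klb, Fgfbp1 and Flrt1 had no peak in either library. Kl and Klb encode the Klotho coreceptors of the endocrine ligands, and the endocrine ligand genes Fgf15, Fgf21 and Fgf23 had no promoter peak either. Among ETS and early response genes 9 of 10 were open, with Myc (4.67), Egr1 (3.95) and Fos (2.24) the densest and Elk3 open in replicate 1 only. Among the other feedback inhibitors 11 of 12 were open, with Dusp6 (2.10), Dusp7 (1.17) and Lzts1 (0.812) the densest. Dusp6, a phosphatase of the MAP kinases, had its strongest promoter peak at percentiles 97.3 and 98.7, above all Sprouty and Spred genes. Dusp9, an X-linked phosphatase gene, had no peak.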

How the data were processed

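Peaks were deposited by the authors for each library, not pooled, with a read-depth normalised signal (cleavage density) and no p or q. Per the file lists that the submitters deposited, one run started from filtered alignments and gave the main and looser peak lists, the footprints and the per-base p-value track. Another run started from reads and gave hotspots and 2 read-derived peak lists. Hotspots carry a deposited highest −log10 FDR. The footprint lists carry 0.01 in every line of the deposited p-value column, which is a threshold. The aligner and callers were not given in the sources used here. An FDR of 0.001 for the main list and 0.05 for the looser list was inferred from the per-base track. The labels name mm10, and reads of an F1 cross placed on the C57BL/6J genome can favour that allele. Another 2 footprint lists of replicate 2, with positions only, were not used.

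Relative depth came from the step of the densities, of which 100% of values checked were whole multiples (tolerance 0.05 steps). Absolute depth is unknown. Within a list, 2.83% and 2.78% of peaks overlap another peak and were counted as listed. A promoter peak overlaps 1 kb on either side of any annotated start. A distal peak has its midpoint in the gene body or 10 kb upstream and is no promoter peak of that gene. Peaks or footprints of both libraries were the same if they overlapped by at least 1 bp. No test was run, since there is 1 group of 2 libraries. Counts and medians stand beside those of all protein-coding genes. The members and lists were chosen with earlier results of these data known.

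All members are named, with full values for those with a promoter peak in 1 or both libraries, the strongest shared distal peak of each role, and per pathway list the 3 genes with the most shared peaks per 10 kb and all without a peak. Further peaks were named after their values were seen. Some items that this rule selects are not reported here. Motifs were searched only in promoters that the RefSeq table holds. The overlap code was tested on simulated data. Python 3.11.15, numpy 2.4.6, pandas 2.3.3, pysam 0.24.0, samtools 1.23.1 and matplotlib 3.10.9 were used. Alternatives were other lists, windows, spans and overlaps, an equal list size, each library alone and all Fgfr2 transcripts.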

Additional observations from a re-analysis of the deposited data

How the results depend on the processing

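The count of 14 open genes (promoter peak in each library) ranged from 13 to 19. It was 13 with a window of 500 bp, 16 with one of 2500 bp and 19 in the looser and both read-derived lists. It stayed at 14 in the stricter list (FDR 0.0001), and was 16 and 17 in replicate 2 and replicate 1 alone. All 13 alternatives for this count lay within 1.5 times of it. So did all 4 for the pathway genes (70 to 74 of 79). The share of open genes among all protein-coding genes was 55.1% in the main list, where the family had 43.8%. That share was 53.1% with the stricter list, 53.9% with the 500 bp window and 57.1% with the 2500 bp window. Where 19 of 32 family genes were open, it was 61.3% (looser), 57.9% (smaller read-derived) and 60.6% (larger read-derived). The family thus lay below all genes in the main list but close to them where 19 were open. The 35 distal peaks of replicate 1 found in both libraries became 61 in the looser list, 59 in the larger read-derived list, 101 with 50 kb added to both ends of the gene body and 91 with all Fgfr2 transcripts. The 10 other alternatives stayed within 1.5 times. The 191 replicate 1 footprints found in both became 127 at 50% reciprocal overlap, 358 with all Fgfr2 transcripts, and 349 to 444 in either library alone. The cause was not tested, except that a longer span, more transcripts or a single library counts more sites by construction. The median promoter percentile of 79.3 was 83.1 in the smaller read-derived list and 62.0 when ranked among promoter peaks only. Alternatives that left out peaks near other genes' starts (33 distal peaks, 13 genes), or required the promoter peaks of the libraries to overlap (14 genes), were chosen after seeing the data. No paired analysis was possible because there is 1 group. For the 5 genes with a promoter peak in 1 library only, the strongest ranked at percentile 36.4 or lower, and 3 of them (Fgf2, Fgfr2, Fgfr3) had it in replicate 1, the shallower library. The part of depth was not tested.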
